A study of Rattus norvegicus with 8 samples.

Results

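The genes described here encode the splicing machinery of the rat heart: SR proteins and their CLK kinases, hnRNP proteins, proteins of the small nuclear ribonucleoproteins (snRNPs), the SF3A and SF3B complexes, the U2AF factor and the PRPF family. Members were all genes whose single symbol in the platform annotation begins with Tra2, Hnrnp, Snrp, Sf3a, Sf3b or U2af, or with Srsf or Prpf and a digit, together with the genes Clk1 to Clk4. The rule found 67 genes of 14217 with a single symbol, read by 108 probe sets (groups of short array probes for 1 transcript). For each gene the probe set that was brightest on average over the 8 arrays was taken. Another 8 probe sets carry several symbols that include one of these families, among them those for Hnrnpk and Snrpc, and no gene was named from them. Srsf7-ps4, which the annotation gives as a pseudogene, met the rule and was kept under that name.

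RNA of whole hearts was measured on 8 Affymetrix arrays, 1 per heart. Hearts of male Wistar rats of about 300 g were excised and perfused for 2 h through the aorta, the Langendorff preparation, in which the perfusate is not returned to the heart. In 4 hearts the perfusate held 2 µM doxorubicin (the prefix of the unit is lost in the labels and was read as micro), an anthracycline that intercalates into DNA and poisons topoisomerase II, and in 4 control hearts it held no drug. The labels give no age or genotype, and an isolated heart is without nerves or circulating blood, so the data describe a short exposure of the organ alone. The question is how the drug alters transcript levels in the organ within the perfusion.

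Splicing removes introns from the primary transcript. The U1 snRNP binds the start of the intron, U2AF and then the U2 snRNP with its SF3A and SF3B subunits bind its end, and the U4/U6.U5 tri-snRNP, which holds many PRPF proteins, joins before the reaction. SR proteins bind exonic sequences and mostly favour the use of nearby splice sites, hnRNP proteins bind the primary transcript and often oppose them, and CLK kinases phosphorylate SR proteins in the nucleus. In human and mouse, many SR protein genes limit their own mRNA through alternative exons that mark the transcript for decay. The arrays read transcript levels, not the splicing of any target.

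Levels are log2 intensity, and a difference is doxorubicin minus control on that scale, from a linear model over all probe sets (limma) with its standard error (SE). A gene was called changed where the Benjamini-Hochberg adjusted p over all 31042 probe sets was under 0.05. The level of one probe set cannot be set against that of another, so levels are compared only between hearts. The doxorubicin arrays had a lower level of the 18 hybridization control probe sets, which read transcripts added to the labelled sample, at 10.02 ± 0.08 log2, against 10.32 ± 0.17 log2 in control arrays (SD, n = 4 each; two-sided exact permutation p = 0.0286, the smallest that 70 ways allow). Correlations between arrays, across probe sets, ran from 0.988 to 0.996 within groups and from 0.985 to 0.993 between groups. Of 7 cardiomyocyte markers measured, none was called by limma and none had a raw p under 0.05, and Myh6, the alpha myosin heavy chain of the ventricle, averaged 14.10 log2 in doxorubicin hearts and 14.04 log2 in control hearts. Of 40 markers of 7 cell types, 1 rose, the endothelial receptor gene Tie1 (0.34, SE 0.06, adjusted p = 0.0148), and 39 did not pass. The 6 endothelial markers summed to 11.3 to 11.5 log2 in doxorubicin hearts and 11.3 to 11.4 log2 in control hearts. Intensities were added on the linear scale, so bright probe sets weigh most in such a sum. Taken singly, 4 of the 6 had positive and 2 negative differences, with a median of 0.16. The summed level of the 7 macrophage and leukocyte markers was 9.64 to 10.1 log2 in doxorubicin hearts and 9.70 to 10.1 log2 in control hearts. The 4 atrial markers summed to 10.5 to 14.3 log2 in doxorubicin hearts and 10.2 to 13.3 log2 in control hearts, so single hearts differed widely in them. All 4 had positive differences, 0.56 to 1.44 with a median of 0.95, and none was called. Differences were positive for 4 of 5 adipocyte markers (median 0.36), 5 of 6 fibroblast markers (0.15) and 1 of 5 smooth muscle markers (-0.08). Of all 40 markers 28 had positive and 12 negative differences. The part of other cell types in the results below was not tested. In whole tissue, fewer cells of a type and less RNA per cell cannot be told apart.

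Transcripts of the splicing machinery differed little between the groups. Of 67 genes 1 fell, Srsf2, none rose in limma and 66 did not pass. That is 1.49% of the members, against 2.97% of all 14217 genes called in either direction (2.17% lower and 0.802% higher). The median difference of the members was 0.0052, against 0.0063 over all genes, and the median size of the difference without its sign was 0.08 in both sets. For all 67 members the 95% interval of the difference, taken gene by gene, lay within 1.5-fold either way, and the same held for 91.5% of all genes. The widest bounds were -0.49, for U2af1, and 0.51, for Hnrnpll. RMA makes the arrays' distributions alike, so a change common to most transcripts is not visible here.

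**Figure D1:**
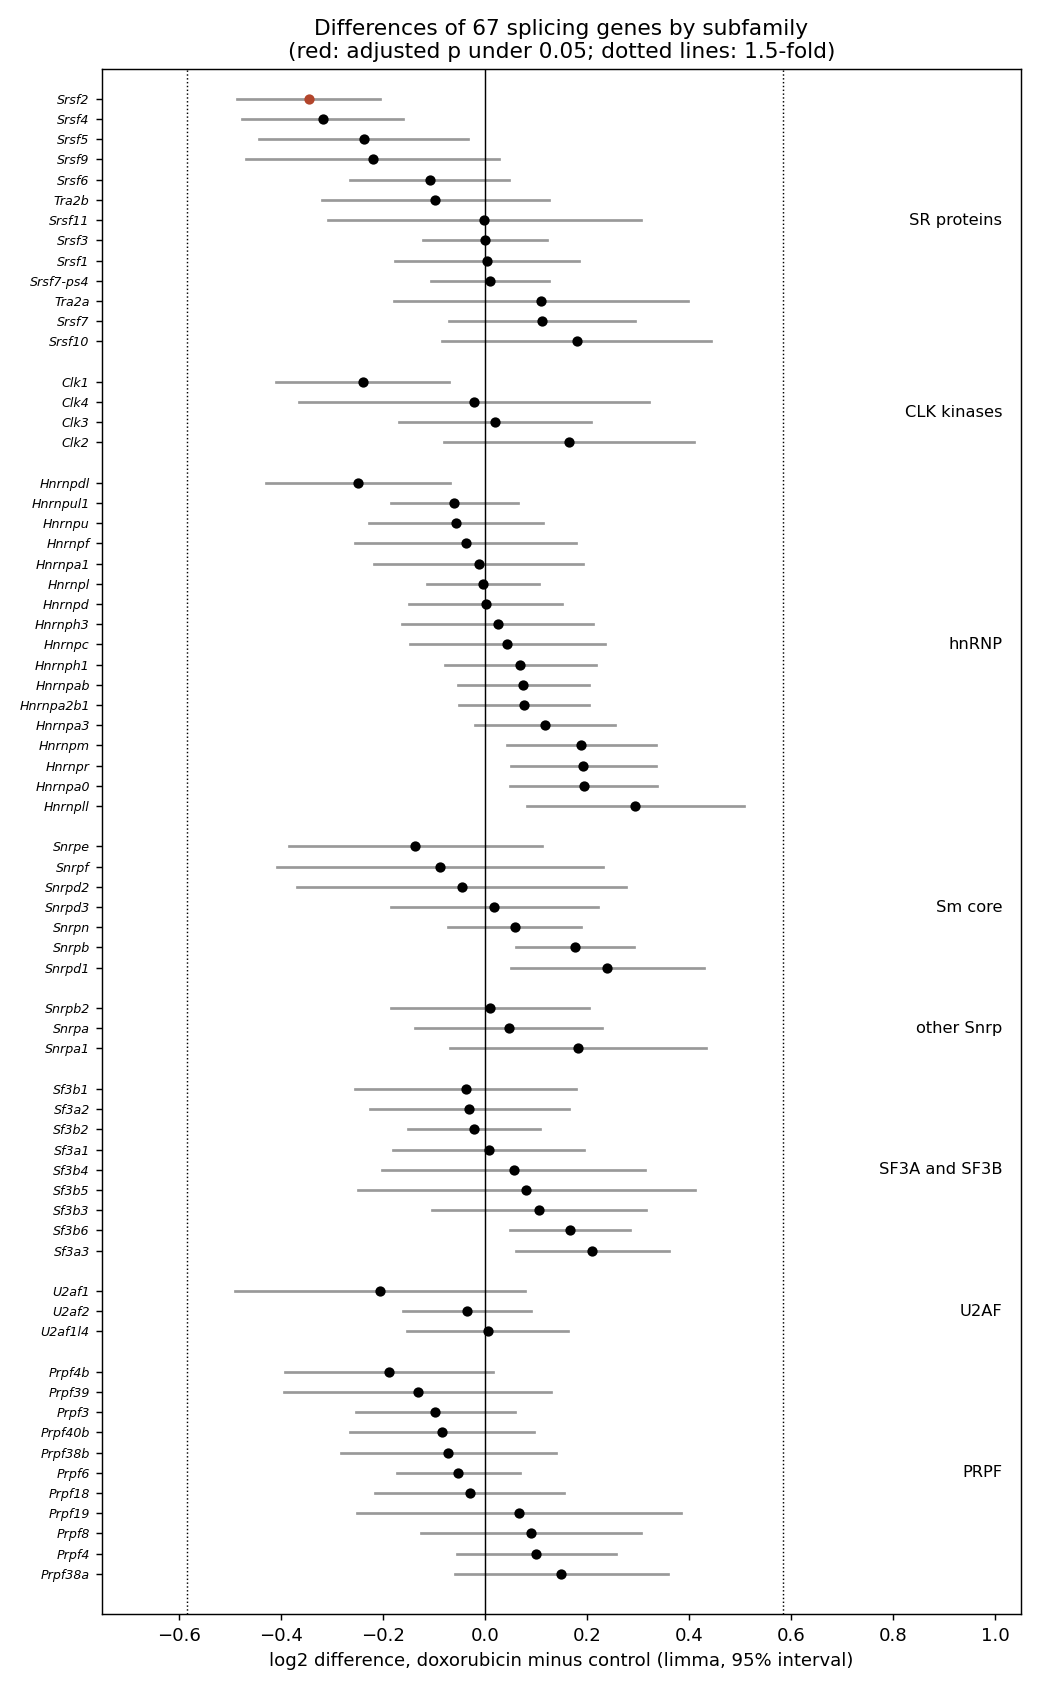
Log2 difference, doxorubicin minus control, of the brightest probe set of each of the 67 genes (points, x axis) with its 95% interval from limma (grey lines), grouped by subfamily down the page. Srsf2 is the only red point (adjusted p = 0.0203), and every interval ends inside the dotted lines at 1.5-fold.

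Before adjustment p was under 0.05 for 5 members that were lower and 8 that were higher, 7.46% and 11.9% of 67, against 7.07% and 9.67% of all genes. The 4 doxorubicin hearts all lay below the 4 control hearts for 2 members (2.99%), Srsf2 and Srsf4, where 4.69% of all genes did so. They all lay above the control hearts for 4 members (5.97%), Hnrnpa0, Snrpb, Sf3b6 and Sf3a3, where 5.75% of all genes did so. These shares lie near the background of the arrays in either direction. After a repeated quantile normalization, added after seeing the data, 3 members lay wholly lower and 7 wholly higher in doxorubicin hearts. The shares of all genes were not counted after that normalization, so these counts cannot be set against a background.

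The sequences just before the start sites of 3 members are printed below. These members are Srsf2 and Srsf4, the lower members with the smallest p, and Snrpb, the higher member with the smallest p. The choice of these 3 was made after their values were seen. Each line gives the 250 bases before the start site, 5′ to 3′ on the gene's strand, from RefSeq (GRCr8). Srsf2 lies at chr10:102554142-102554391 on the minus strand, Srsf4 at chr5:149345288-149345537 on the plus strand and Snrpb at chr3:137832480-137832729 on the minus strand. Capitals mark the motifs that were searched on both strands, which were TATAAA (the TATA element), TGACG (a cAMP response element half-site), CCGGAAG (the core bound by ETS factors), GGGCGG (the GC box), CACGTG (the E-box) and CCAAT.
Srsf2: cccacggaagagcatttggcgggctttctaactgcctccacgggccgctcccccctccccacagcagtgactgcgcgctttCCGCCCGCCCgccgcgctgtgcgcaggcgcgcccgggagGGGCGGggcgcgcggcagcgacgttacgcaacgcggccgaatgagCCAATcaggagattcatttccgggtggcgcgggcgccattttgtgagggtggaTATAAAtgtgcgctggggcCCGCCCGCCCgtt
Srsf4: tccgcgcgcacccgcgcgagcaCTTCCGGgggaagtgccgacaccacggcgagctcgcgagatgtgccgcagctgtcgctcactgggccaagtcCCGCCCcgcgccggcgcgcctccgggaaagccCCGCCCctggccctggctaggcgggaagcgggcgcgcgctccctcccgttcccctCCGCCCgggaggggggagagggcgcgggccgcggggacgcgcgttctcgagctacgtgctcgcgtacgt
Snrpb: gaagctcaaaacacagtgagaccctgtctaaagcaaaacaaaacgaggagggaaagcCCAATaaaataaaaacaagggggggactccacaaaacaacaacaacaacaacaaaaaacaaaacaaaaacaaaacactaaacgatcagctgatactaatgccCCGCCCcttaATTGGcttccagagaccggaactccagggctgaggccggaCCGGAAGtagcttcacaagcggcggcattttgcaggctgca
The Srsf2 window held TATAAA at base -32, counted back from the start site, CCAAT at -85 and GGGCGG or its reverse complement 5 times, in part overlapping, while the Srsf4 window held 3 GC boxes and 1 ETS core and no TATAAA. The Snrpb window held 1 GC box, 1 ETS core at -41 and CCAAT 2 times. The 3 windows differed in composition. GC content was 69.6% for Srsf2, 77.2% for Srsf4 and 46.8% for Snrpb, with 33, 42 and 8 CG dinucleotides. Over the 67 member windows, all of which were found in the table, the median GC content was 58.4% and the median number of CG dinucleotides 20, against 51.2% and 5 over all 33469 gene windows. TGACG was in 35 of 67 member windows (52.2%) and in 18.2% of all windows, CCGGAAG in 18 (26.9%, against 7.27%), GGGCGG in 39 (58.2%, against 30.5%) and CCAAT in 32 (47.8%, against 34.0%). TATAAA was in 6 (8.96%, against 12.9%) and CACGTG in 6 (8.96%, against 5.59%). All gene windows include those of genes with no probe set and of non-coding genes, and a match of letters is a description of the window, not of a bound factor.

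SR proteins carried the one call. Srsf2, which encodes SC35, an SR protein of the nuclear speckles, had 9.93, 9.76, 9.93 and 9.97 log2 in doxorubicin hearts 1 to 4, against 10.28, 10.19, 10.29 and 10.23 log2 in control hearts 1 to 4. All 4 doxorubicin hearts lay below all control hearts, with doxorubicin heart 2 lowest. The mean was 9.90 ± 0.09 log2 in doxorubicin hearts and 10.24 ± 0.04 log2 in control hearts (SD, n = 4 each), so Srsf2 fell by 0.35 on the log2 scale (SE 0.06, 95% interval -0.49 to -0.21, adjusted p = 0.0203), to 0.787 of the control level. A second Srsf2 probe set had 8.07, 7.62, 8.04 and 7.83 log2 in doxorubicin hearts, against 8.36, 8.18, 8.26 and 8.18 log2 in control hearts. It did not overlap between the groups either, with a difference of -0.36 (SE 0.10, adjusted p = 0.129) that alone did not pass. Of the 23 members with several probe sets, Srsf2 had the closest differences between them, 0.01 apart. The call was lost without control 3 (-0.33, adjusted p = 0.0687), control 4 (-0.35, 0.0528), doxorubicin 1 (-0.36, 0.0587), doxorubicin 2 (-0.30, 0.0501) or doxorubicin 3 (-0.36, 0.0521), and kept without each of the other 3 hearts. With the level of the hybridization controls added as a covariate, the difference was -0.29 (adjusted p = 0.652). That level was 9.97 to 10.13 log2 in doxorubicin arrays and 10.21 to 10.57 log2 in control arrays. It separates the groups, so this fit, here and below, cannot tell the covariate from the drug.

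Srsf4, a longer SR protein, came just short of the threshold. It had 8.01, 8.13, 7.83 and 7.94 log2 in doxorubicin hearts, against 8.34, 8.26, 8.31 and 8.27 log2 in control hearts. The groups did not overlap, and doxorubicin hearts varied more (7.98 ± 0.13 log2, against 8.30 ± 0.04 log2 in control hearts; SD, n = 4 each). The difference was -0.32 (SE 0.07, 95% interval -0.48 to -0.16, adjusted p = 0.0523). It passed in 6 of 19 alternatives and not in 13, with adjusted p from 0.0303 to 0.779, the highest with the hybridization covariate (-0.27). Without single hearts it passed in 1 of 8 fits, that without doxorubicin 2 (-0.37, adjusted p = 0.0323).

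Srsf5, an SR protein gene first cloned in rat as an insulin-induced transcript of liver cells, had 10.65, 10.25, 10.42 and 10.55 log2 in doxorubicin hearts, against 10.84, 10.67, 10.63 and 10.68 log2 in control hearts. Doxorubicin heart 1 lay above control heart 3, so the groups overlapped, and the difference of -0.24 (SE 0.09, adjusted p = 0.282) did not pass. Srsf9, a short SR protein, stood at -0.22 (SE 0.11) and Srsf6 at -0.11 (SE 0.07), while Srsf1, the founding member of the family, was at 0.0042 (SE 0.08). Of the 13 genes in this subfamily, 8 had negative and 5 positive differences, with a median of -9.2e-04 and a range of -0.35 to 0.18. The upper end was Srsf10, a splicing repressor when dephosphorylated, at 0.18 (SE 0.12), with its 4 other probe sets between 0.02 and 0.20. For the Tra2 genes, whose proteins bind exonic enhancers together with SR proteins, the brightest probe sets had opposite signs. Tra2a stood at 0.11 (SE 0.13) and Tra2b at -0.10 (SE 0.10). The second probe set was negative in both, at -0.12 (SE 0.10) for Tra2a and -0.04 (SE 0.11) for Tra2b. In the brightest probe set of both Tra2 genes control heart 1 was the lowest and control heart 2 the highest of the 8 hearts. Tra2b ran from 9.29 to 9.76 log2 between them. Srsf3 and Srsf7-ps4 were below 4.16 log2, the upper limit of the dimmest 25% of probe sets, in both groups. Srsf7-ps4, the dimmest member, had 3.57, 3.49, 3.49 and 3.50 log2 in doxorubicin hearts, against 3.53, 3.51, 3.45 and 3.53 log2 in control hearts, with overlap (0.01, SE 0.05, adjusted p = 0.967). Another 2 probe sets for Srsf3 carry several symbols and were not used. Srsf7 stood at 0.11 (SE 0.08).

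The CLK kinases, which release SR proteins from speckles by phosphorylating them, did not pass in any of 4 genes. Clk1 had 10.22, 9.99, 10.05 and 10.13 log2 in doxorubicin hearts, against 10.18, 10.42, 10.42 and 10.32 log2 in control hearts. Of the 4 doxorubicin hearts, 3 lay below every control heart, and doxorubicin heart 1 lay between control hearts 1 and 4. The difference was -0.24 (SE 0.08, 95% interval -0.41 to -0.07, adjusted p = 0.174). Clk2 had 6.57, 6.81, 6.42 and 6.69 log2 in doxorubicin hearts, against 6.35, 6.66, 6.25 and 6.57 log2 in control hearts. The groups overlapped, at 0.17 (SE 0.11, adjusted p = 0.594), and with the hybridization covariate the sign was turned (-0.08). Clk3 stood at 0.02 (SE 0.08). Clk4 stood at -0.02 (SE 0.15), with control hearts from 6.22 to 6.97 log2, a wider spread than the doxorubicin hearts, which lay at 6.35 to 6.78 log2.

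**Figure D2:**
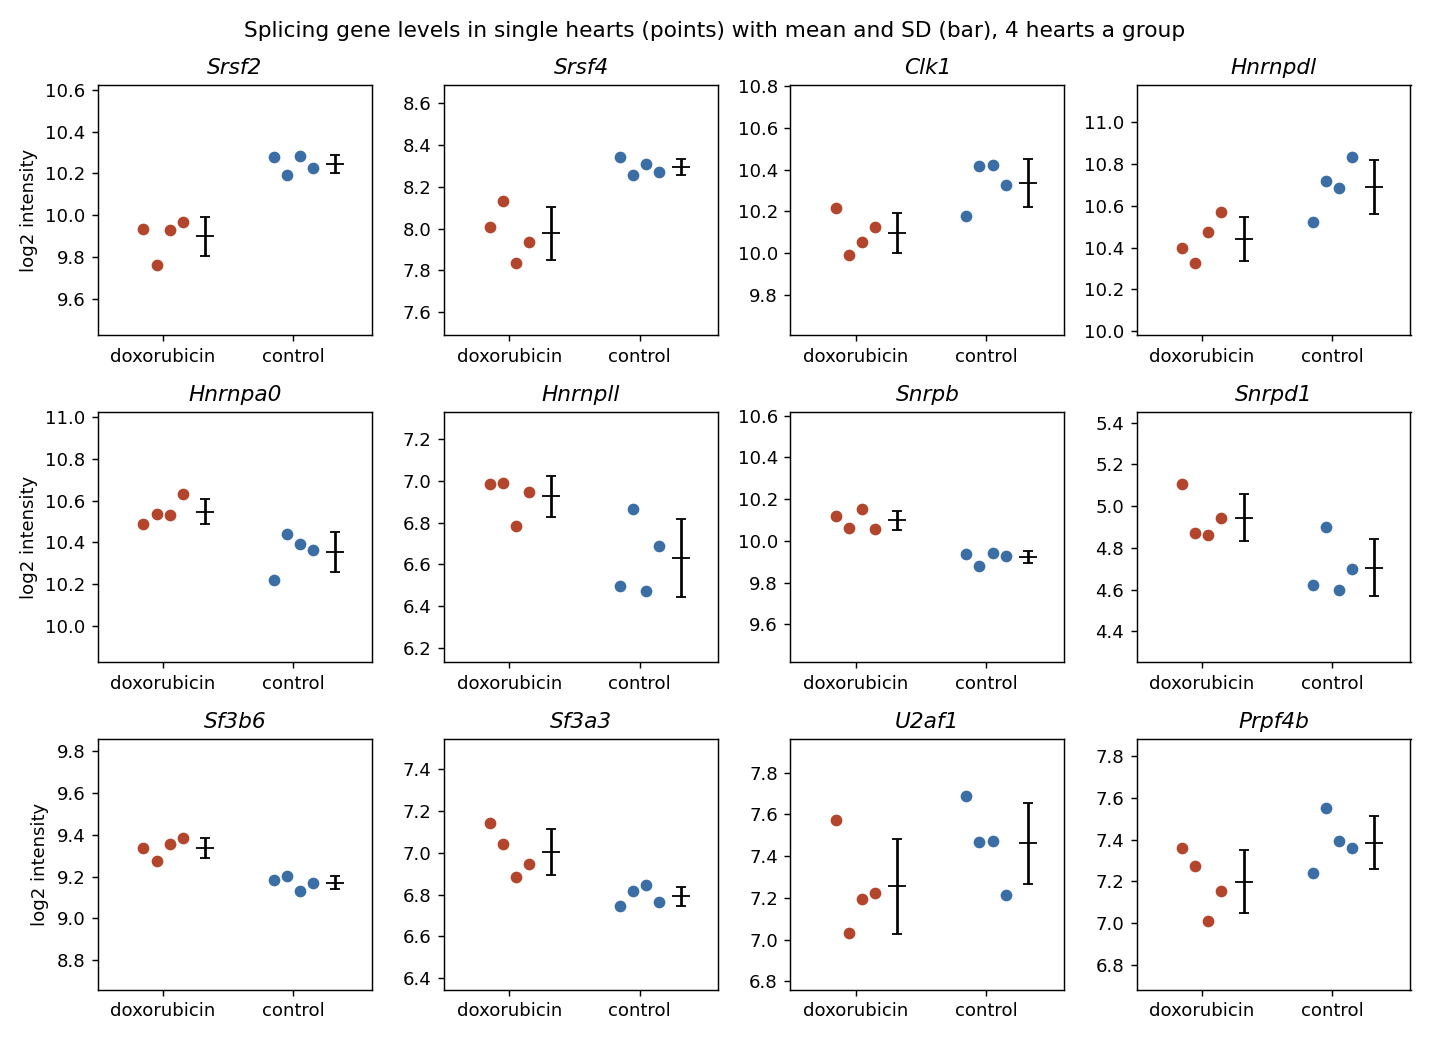
Log2 intensity of 12 splicing genes (y axes, each spanning 1.2 log2 units) in single hearts (points), doxorubicin left and control right, with the mean and SD of 4 hearts (black). Srsf2 and Srsf4 lie wholly lower, and Hnrnpa0, Snrpb, Sf3b6 and Sf3a3 wholly higher, in doxorubicin hearts, while the groups overlap in the other 6 genes.

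No hnRNP gene was called in limma. Of 17 genes 11 had positive and 6 negative differences, with a median of 0.04, and 4 higher and 1 lower had a raw p under 0.05. Of all genes, 9.67% were higher and 7.07% lower at that raw p, and a departure of this subfamily from these shares was not tested. Hnrnpll, which regulates splicing in lymphocytes, had 6.98, 6.99, 6.78 and 6.95 log2 in doxorubicin hearts, against 6.50, 6.87, 6.47 and 6.69 log2 in control hearts. Control heart 2 lay above doxorubicin heart 3, and the difference was 0.29 (SE 0.09, 95% interval 0.08 to 0.51, adjusted p = 0.184). It passed in 1 of 19 alternatives, without control 2 (0.37, adjusted p = 0.0482), and was 0.14 (adjusted p = 0.955) with the hybridization covariate. Macrophage and leukocyte markers, which other cells of the heart express, did not pass in the same hearts, but 6 of the 7 had positive differences, with a median of 0.19, and the general leukocyte gene Ptprc stood at 0.33 (SE 0.09, adjusted p = 0.125). The one negative, Cd14, the monocyte receptor for bacterial lipopolysaccharide, had the larger difference, -0.53 (SE 0.16, adjusted p = 0.14). Their part in the Hnrnpll value was not tested.

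Hnrnpa0, a relative of hnRNP A1 that binds AU-rich RNA, had 10.49, 10.53, 10.53 and 10.63 log2 in doxorubicin hearts, against 10.22, 10.44, 10.39 and 10.36 log2 in control hearts. The doxorubicin hearts were all above the control hearts, at 0.19 (SE 0.06, adjusted p = 0.203). Hnrnpr (0.19, SE 0.06) and Hnrnpm (0.19, SE 0.07), a regulator of alternative exons, had differences of the same size, with adjusted p of 0.195 and 0.219. Hnrnpdl, an AU-rich RNA-binding relative of hnRNP D, was the only member of this subfamily lower with a raw p under 0.05. It had 10.40, 10.33, 10.47 and 10.57 log2 in doxorubicin hearts, against 10.52, 10.72, 10.69 and 10.83 log2 in control hearts. Doxorubicin heart 4 lay above control heart 1, and the difference was -0.25 (SE 0.08, adjusted p = 0.19). Its second probe set stood at -0.26 (SE 0.09), and the dimmest, at about 5 log2, at -0.03.

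Hnrnpc, Hnrnpa2b1, Hnrnpu, Hnrnpl and Hnrnph1 had small differences by their brightest probe sets. Hnrnpc, a subunit of the core particle, stood at 0.04 (SE 0.09), Hnrnpa2b1 at 0.08 (SE 0.06), Hnrnpu, the scaffold protein of the nuclear matrix, at -0.06 (SE 0.08), and Hnrnpl, which binds CA repeats, at -0.0043 (SE 0.05). Hnrnpl had the smallest SE of the 67 members, at 9.59 ± 0.01 log2 in doxorubicin hearts and 9.60 ± 0.03 log2 in control hearts (SD, n = 4 each). Hnrnph1, which binds runs of G, had 10.83, 10.61, 10.74 and 10.80 log2 in doxorubicin hearts, against 10.65, 10.73, 10.60 and 10.72 log2 in control hearts, and the groups overlapped (0.07, SE 0.07, adjusted p = 0.744).

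Other probe sets of the same hnRNP genes gave other values. Hnrnpa1, which encodes the most studied splicing repressor of the family, stood at -0.01 (SE 0.09) by its brightest probe set, at 0.25 by another and at -0.51 (SE 0.14, adjusted p = 0.109) by its dimmest. In that dimmest probe set the doxorubicin hearts lay at 6.82 to 7.09 log2, against 7.21 to 7.85 log2 in control hearts, with no overlap. For Hnrnpa3 the brightest probe set gave 0.12 (SE 0.06), while another gave 0.35 (SE 0.08, adjusted p = 0.0692), with 9.15, 8.99, 9.01 and 9.08 log2 in doxorubicin hearts, against 8.50, 8.85, 8.79 and 8.69 log2 in control hearts. Hnrnph3 stood at 0.03 and 0.58 (SE 0.19, adjusted p = 0.193) and Hnrnpu between -0.43 and 0.14. For Hnrnpa2b1 another probe set gave 0.26 (SE 0.09, adjusted p = 0.226). There the doxorubicin hearts lay at 7.22 to 7.30 log2, against 7.21 log2 or less in control hearts, with no overlap. The remaining Hnrnpa2b1 probe sets stood at 0.0021 and 0.17. Over all 108 member probe sets 1 was called, where 2.21% of all 31042 were. Of the 23 genes with several probe sets, 13 held both signs, Hnrnpa3 among them with a lowest value of -1.6e-05. Where probe sets of a gene differ, the transcript form that each reads is not known here.

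**Figure D3:**
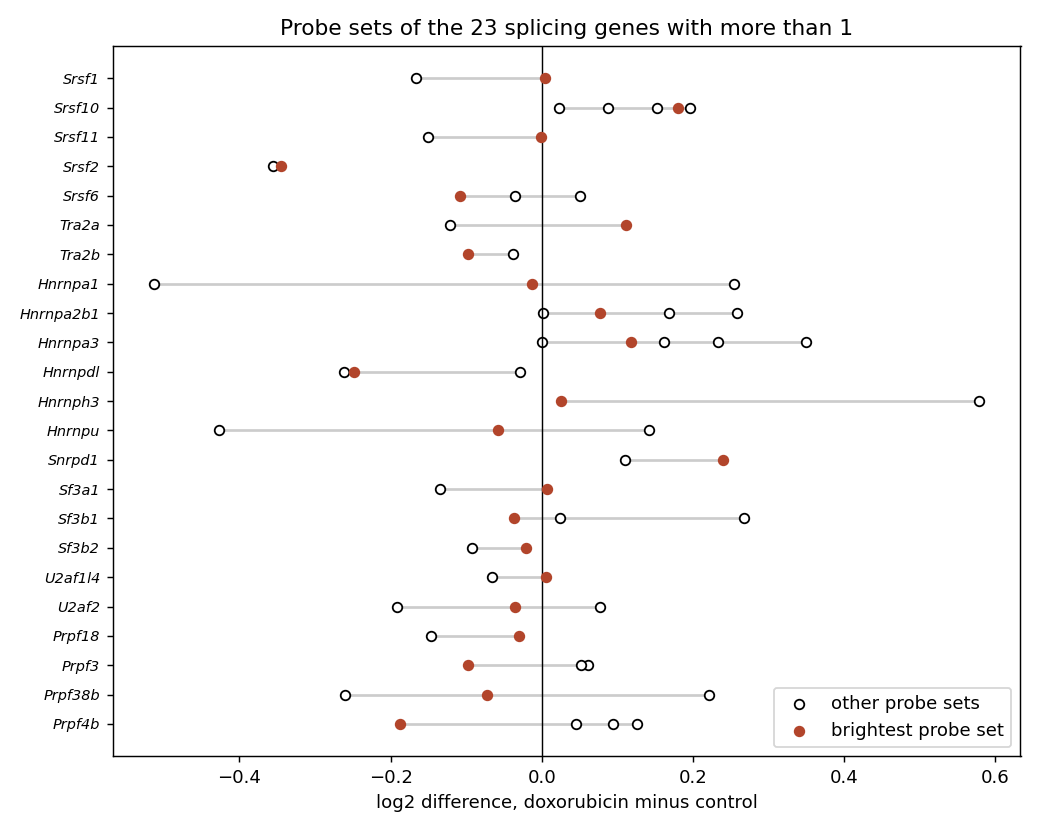
Log2 difference, doxorubicin minus control (x axis), of every probe set of the 23 splicing genes that have more than 1 (rows); red points are the brightest probe set and open points the others. The 2 Srsf2 points nearly coincide at -0.35 and -0.36, whereas those of Hnrnpa1 run from -0.51 to 0.25.

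Sm proteins form the ring around the snRNAs of the spliceosomal snRNPs. None of the 7 genes passed in limma, and a raw p under 0.05 was found for 2, both higher, as it was for 9.67% of all genes. Snrpb, which encodes SmB, had 10.12, 10.06, 10.15 and 10.06 log2 in doxorubicin hearts, against 9.94, 9.88, 9.94 and 9.93 log2 in control hearts. All doxorubicin hearts were above all control hearts by a small step of 0.18 (SE 0.05, 95% interval 0.06 to 0.29, adjusted p = 0.144). Snrpd1, for SmD1, had 5.10, 4.87, 4.86 and 4.94 log2 in doxorubicin hearts, against 4.62, 4.90, 4.60 and 4.70 log2 in control hearts. Control heart 2 lay among the doxorubicin hearts, at 0.24 (SE 0.08, adjusted p = 0.23), and the second probe set stood at 0.11. The remaining Sm genes were Snrpn (0.06), Snrpd3 (0.02), Snrpd2 (-0.05), Snrpf (-0.09) and Snrpe (-0.14). For the last 3, SE was 0.11 to 0.14, and control heart 1 held the highest value of the 8 hearts. Snrpf read 8.70 log2 there, against 8.02 to 8.25 log2 in the other control hearts and 8.03 to 8.30 log2 in doxorubicin hearts.

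Proteins that mark U1 and U2 snRNPs showed no call in 3 genes. Snrpa1, the U2 protein A′, had 5.90, 5.99, 5.66 and 5.90 log2 in doxorubicin hearts, against 5.54, 5.95, 5.47 and 5.75 log2 in control hearts. The ranges overlapped (0.18, SE 0.11, adjusted p = 0.557). Snrpa, the U1 protein A, had 5.83, 5.84, 5.84 and 5.84 log2 in doxorubicin hearts, against 5.95, 5.56, 5.79 and 5.87 log2 in control hearts (0.05, SE 0.08, adjusted p = 0.885). Without control 2, which was the lowest, its difference was -0.03. Snrpb2, the U2 protein B″, stood at 0.01 (SE 0.09).

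The SF3A and SF3B complexes, which hold the U2 snRNP on the branch site, held 2 of the 4 members that lay wholly higher in doxorubicin hearts. Of all genes 5.75% did so, and whether 2 of these 9 genes exceed that share was not tested. Sf3b6, the subunit that touches the branch-point adenosine, had 9.34, 9.27, 9.36 and 9.39 log2 in doxorubicin hearts, against 9.18, 9.20, 9.13 and 9.17 log2 in control hearts. The step of 0.17 (SE 0.05, 95% interval 0.05 to 0.28) had an adjusted p of 0.172. Sf3a3 had 7.14, 7.04, 6.89 and 6.95 log2 in doxorubicin hearts, against 6.75, 6.82, 6.85 and 6.76 log2 in control hearts. Doxorubicin heart 3 was just above control heart 3, and the difference was 0.21 (SE 0.07, adjusted p = 0.178). The other 7 genes ranged from -0.04 for Sf3b1, the largest SF3B subunit, to 0.11 for Sf3b3. Limma called none of the 9, and a raw p under 0.05 was found for these 2 alone, where 9.67% of all genes were higher at that raw p.

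U2AF, the dimer that reads the polypyrimidine tract and the end of the intron, did not pass in 3 genes. U2af1, the small subunit, had 7.57, 7.03, 7.19 and 7.22 log2 in doxorubicin hearts, against 7.69, 7.47, 7.47 and 7.21 log2 in control hearts. Doxorubicin heart 1 was above 3 of the control hearts, at -0.21 (SE 0.13, adjusted p = 0.559). U2af2, the large subunit, had 9.04, 8.99, 9.05 and 9.15 log2 in doxorubicin hearts, against 9.08, 9.07, 9.15 and 9.06 log2 in control hearts (-0.04, SE 0.06, adjusted p = 0.872), and U2af1l4, a relative of the small subunit, was at 0.0052.

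Among 11 PRPF genes limma called none, and none had a raw p under 0.05. Prpf4b, a kinase of the tri-snRNP, had 7.36, 7.27, 7.01 and 7.15 log2 in doxorubicin hearts, against 7.24, 7.55, 7.39 and 7.36 log2 in control hearts. The groups overlapped, at -0.19 (SE 0.09, adjusted p = 0.42), and its 3 other probe sets had positive differences, up to 0.13. Prpf38a had 6.88, 6.84, 6.63 and 6.89 log2 in doxorubicin hearts, against 6.53, 6.90, 6.58 and 6.64 log2 in control hearts (0.15, SE 0.09, adjusted p = 0.563). Prpf8, the large protein at the centre of the spliceosome, stood at 0.09 (SE 0.10), Prpf6 at -0.05 (SE 0.05) and Prpf3 at -0.10 (SE 0.07). Prpf19, a ubiquitin ligase of the activated spliceosome, stood at 0.07 (SE 0.14), with control heart 1 at 7.99 log2, above the range of 7.26 to 7.50 log2 of the other control hearts and of 7.49 to 7.71 log2 of the doxorubicin hearts.

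Single hearts also differed among themselves. Control heart 1 held the highest value of the 8 hearts for 19 members and the lowest for 14, together 33 of 67, while each other heart held an extreme for 6 to 20 members. Around each member's mean over the 8 hearts, the SD over members was 0.19 log2 in control heart 1, 0.10 to 0.15 log2 in doxorubicin hearts and 0.12 to 0.13 log2 in the other control hearts. The median deviation over the 67 members ran from -0.02 to 0.07 log2 in doxorubicin hearts and from -0.03 to 0.02 log2 in control hearts. For the Sm core genes it was 0.20 log2 in control heart 1, against -0.12 to 9.3e-04 log2 in the other control hearts.

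**Figure D4:**
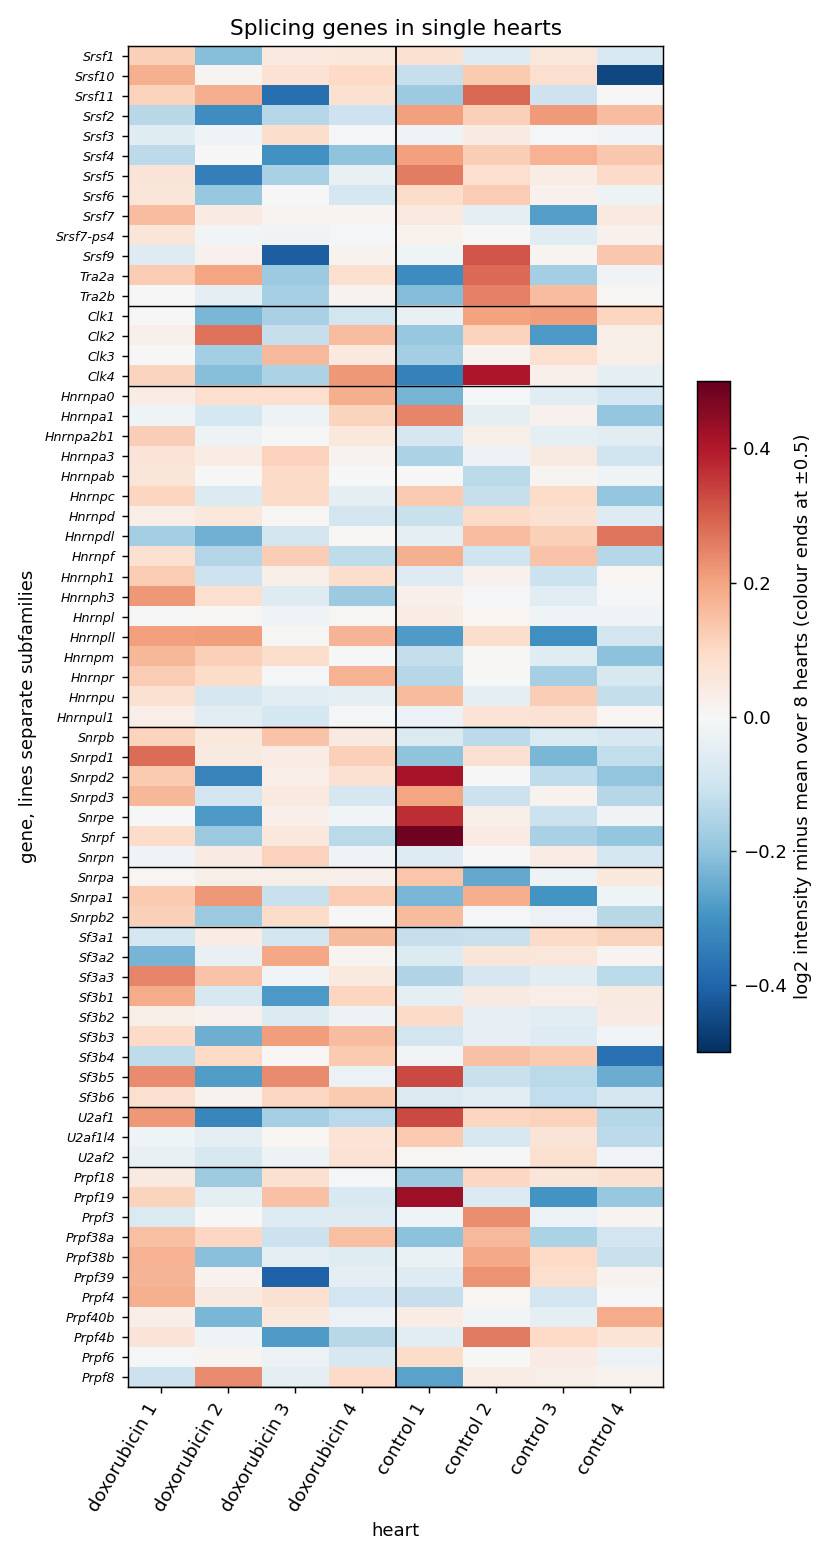
Log2 intensity minus the gene's mean over 8 hearts (colour) for the 67 splicing genes (rows, lines separate subfamilies), doxorubicin hearts left and control hearts right. Srsf2 and Srsf4 are blue or near white in the 4 doxorubicin hearts and red in the 4 control hearts, while control heart 1 departs from the other control hearts in many rows.

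The rest of the pathway was read from 4 lists of splicing genes outside these families, of which 135 of 148 genes were measured. Over the 4 lists 2 rose (1.48%, against 0.802% of all genes), none fell in limma (against 2.17%) and 133 did not pass. A raw p under 0.05 was found for 4 lower genes (2.96%, against 7.07% of all genes) and 18 higher genes (13.3%, against 9.67%). The median difference was 0.04, against 0.0063 over all genes. Both called genes belong to the 65 other snRNP and spliceosome proteins. Usp39, a protein of the tri-snRNP, had 7.27, 7.17, 7.16 and 7.17 log2 in doxorubicin hearts, against 6.89, 6.96, 6.95 and 6.91 log2 in control hearts. The groups were apart, and Usp39 rose by 0.26 (SE 0.05, adjusted p = 0.0351). Ppie, a cyclophilin of the spliceosome, had 7.50, 7.67, 7.60 and 7.54 log2 in doxorubicin hearts, against 7.21, 7.25, 7.32 and 7.35 log2 in control hearts. It rose by 0.29 (SE 0.06, adjusted p = 0.0404). The Ppie call was lost without any one of the 8 hearts (differences 0.26 to 0.32, adjusted p 0.0631 to 0.113) and the Usp39 call without any one but control 2 (0.24 to 0.27, adjusted p 0.0725 to 0.121).

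Limma called none of 19 exon junction and export genes, and 1 had a raw p under 0.05. That was Pnn, which encodes pinin, a protein of the exon junction complex. It had 7.78, 8.13, 7.67 and 7.90 log2 in doxorubicin hearts, against 6.85, 7.65, 7.12 and 7.13 log2 in control hearts, where control heart 2 lay just under the lowest doxorubicin heart. The difference was 0.68 (SE 0.16, adjusted p = 0.0661), and without control 2 it was 0.84 (adjusted p = 0.00752). Pnn passed in 7 of 19 alternatives, with differences from 0.40 to 0.84 and adjusted p up to 0.837. Its 3 other probe sets stood at 0.13 to 0.44. Ncbp2, a subunit of the cap-binding complex, stood at 0.35 (SE 0.17, adjusted p = 0.419).

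Limma called none of 34 other RNA-binding splicing regulators, and a raw p under 0.05 was found for 6 higher and 1 lower. Of all genes, 9.67% were higher and 7.07% lower at that raw p, and a departure of single lists from these shares was not tested. Ptbp1, the polypyrimidine tract-binding repressor, had 8.77, 8.57, 8.67 and 8.85 log2 in doxorubicin hearts, against 8.37, 8.41, 8.42 and 8.43 log2 in control hearts. The doxorubicin hearts were all higher, at 0.31 (SE 0.07, adjusted p = 0.0548, passing in 6 of 19 alternatives), and Rbmx stood at 0.24 (SE 0.06, adjusted p = 0.0896). Rbm20, the regulator of titin splicing in heart muscle, was the one lower, at -0.19 (SE 0.07, adjusted p = 0.305). Limma called none of 17 SR kinases and SR-related proteins, and a raw p under 0.05 was found for 2, both higher. These were Srpk1, a kinase that phosphorylates SR proteins in the cytoplasm (0.19, SE 0.08, adjusted p = 0.301), and Sugp1 (0.25, SE 0.11, adjusted p = 0.358), and a second Srpk1 probe set was at -8.0e-04.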

How the data were processed

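Per the submitters' processing notes, the deposited intensity per probe set comes from RMA, which corrects background, quantile-normalizes and summarizes probes. Its software and version: not given in the sources used here. The values were on a linear scale (array medians 29.9 to 31.0), so log2 was taken with no offset. Of 31099 probe sets 57 AFFX controls were left out. Member symbols are those of the platform annotation, and other symbols were updated through the gene ID in RefSeq; 20826 probe sets had 1 symbol, 436 several and 9780 none. No detection calls were used, and the number of arrays limits the precision.

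Groups were compared with limma 3.58.1 in R 4.3.3 (lmFit, eBayes, no covariate), two-sided, with Benjamini-Hochberg adjustment over 31042 probe sets. On simulated data for this comparison, with 31042 probe sets, it recovered 94 of 100 probe sets with 2-fold changes, 82 of 100 with 1.5-fold changes, and made 10 false calls. The simulated noise was independent between probe sets. Smaller changes, such as the 1.27-fold of Srsf2, were not simulated, so recovery at such sizes is not known. Titles name the hearts as biological replicates. The shared replicate numbers were not used as pairs.

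The members, lists and alternatives were chosen with earlier results of these data known. Named with all values were called members, the 2 of each of 8 subfamilies with the smallest p, and the brightest and the dimmest. Of each list, called genes or else the 2 with the smallest p were named. Further members, such as Hnrnpa0 and Srsf5, and Rbm20 were named after their values were seen. Alternatives were other normalizations, a filter on dim probe sets, variance models, array weights, averaged probe sets per gene, adjustment over named genes, a replicate block, the hybridization covariate, log2 of value plus 16 and leaving out each heart. Promoter sequences are from RefSeq (GRCr8); the array has no build here, so no probe positions were used. Python 3.11.15 with matplotlib 3.10.9 drew the figures.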

Additional observations from a re-analysis of the deposited data

Results flagged for a closer look

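Among 52 groups of 4 hearts tested, 4 held a heart set apart from the other 3 of its group. The groups were those of the 18 members and 8 other splicing genes named by rule. For unselected genes chance gives about 1 in 20. Most of these genes were named for a small p in the same hearts, so that rate need not hold here. Snrpa read 5.83 log2 in doxorubicin heart 1, while the other 3 doxorubicin hearts lay within 0.01 of 5.84 log2. The dim Srsf7-ps4 read 3.57 log2 in doxorubicin heart 1, above 3.49 to 3.50 log2 in the other doxorubicin hearts. Usp39 read 7.27 log2 in doxorubicin heart 1, above 7.16 to 7.17 log2 in the others of its group. Sugp1 read 7.13 log2 in control heart 3, below 7.32 to 7.35 log2 in the other control hearts.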

How the results depend on the processing

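The number of members lower, 1 as reported (Srsf2), was 2 with a repeated quantile normalization, array weights, averaged probe sets per gene, adjustment over named genes alone or log2 of value plus 16, Srsf4 being the second. It was 0 with the hybridization covariate and with the replicate block, and 0 to 1 without single hearts. The number higher, 0, was 1 with log2 of value plus 16 (Snrpb) and 0 to 1 without single hearts. The members' median difference ran from -0.011 to 0.028 over all 19 alternatives. Members with no overlap on the higher side numbered 7, against 4, after quantile normalization, where the share of all genes was not counted. With the replicate block Srsf2 had the same difference and adjusted p = 0.0552. Same-numbered hearts did not deviate together (correlations -0.18 to 0.06), and none of the 4 doxorubicin hearts correlated best with its own number.

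Of the other splicing genes 2 rose as reported, Usp39 and Ppie. With a repeated quantile normalization the count was also 2, but Ppie was lost (adjusted p = 0.108) and Pnn passed (0.0469) beside Usp39 (0.0354). The count was 1 without the dimmest 25% of probe sets or with an intensity trend, and in both that gene was Pnn (adjusted p = 0.0474 and 0.0451), with Usp39 (0.0531 and 0.141) and Ppie (0.0501 and 0.112) lost. With the replicate block it was 2, Pnn among them (adjusted p = 0.0178), while Usp39 (0.132) and Ppie (0.105) were lost. It was 5 with array weights or averaged probe sets, 4 with adjustment over named genes alone, 0 with the hybridization covariate and 0 to 3 without single hearts. With that covariate the signs of Clk2 (-0.077), Snrpa1 (-0.028), U2af2 (0.013) and Srsf7-ps4 (-0.016) were turned. The covariate separates the groups and cannot be told apart from the drug, so neither the lost calls nor the turned signs can be assigned to it. Prpf4b was at 0.020 with averaged probe sets. Without single hearts Snrpa ran from -0.031 (without control 2) to 0.100, and Srsf7-ps4 from -0.0084 (without doxorubicin 1) to 0.019, with -0.0080 without control 3. The cause of these changes was not tested.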
